A study of Mus musculus with 5 samples.

Results

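The subject is a set of 46 genes of the cell division cycle, of 18132 genes in the count tables, all of which were present in the tables of all 4 days. They were taken as a named list by function, not by a rule on measured values, though earlier results of these data were known. Of these, 17 were read as a replication list (the core genes Mcm2 to Mcm7, Pcna, Tyms, Rrm1 and Rrm2, and Ccne1, Ccne2, Cdc6, Gins2, Tk1, Dut and Lig1). Another 25 were read as a mitotic list. The remaining 4, Stmn1, H2afz, Hmgb2 and Cks1b, were taken as broadly expressed and kept apart. Levels do not set them fully apart, since Cks2 and Smc4 of the mitotic list were also found in cells of uninjured muscle. Transcripts were counted as unique molecular identifiers (UMIs, each tagging 1 captured mRNA) and summed over all cells that carried 1 cell type label on 1 day.

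The cells came from the tibialis anterior, a muscle of the shin, of C57Bl/6 mice. Muscles were taken at day 0 without injury (4 months old, female), and at day 2 (7 months old, female), day 5 (4 months old, female) and day 7 (4 months old, male) after injection of notexin, a toxin from snake venom under which muscle fibres break down. The tissue was digested and live cells were sorted by dye staining before droplet sequencing, so each label holds what survived both steps. There was 1 library matrix per day, with 2 sequencing runs joined in that of day 0. No difference between days therefore has a replicate or a test, and day cannot be told apart from age and sex. Values in brackets are exact 95% intervals and cover counting error only.

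Before a cell divides it copies its DNA. The Mcm proteins form the ring-shaped helicase that opens the double helix, Cdc6 loads it, Gins2 is a part of the active helicase, Pcna clamps the polymerase to its template, and Lig1 seals the new strand. Tyms, Tk1, Dut and the ribonucleotide reductase subunits Rrm1 and Rrm2 supply the nucleotides, and cyclins E (Ccne1, Ccne2) drive entry into replication. Mitosis follows. The kinase Cdk1 with its cyclins starts it, the Aurora and Polo kinases and the Bub proteins time it, centromere and spindle proteins move the chromosomes, and Cdc20 and Ube2c serve the complex that destroys the cyclins at its end. In resting adult muscle most cells are out of the cycle. After fibre damage, muscle stem cells multiply and fuse into new fibres, and stromal, vessel and blood-derived cells multiply beside them.

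Many promoters of mitotic genes carry CCAAT boxes and the cell cycle genes homology region (CHR), and many of replication genes carry sites for E2F factors. Promoter sequences (RefSeq, GRCm38.p6) were on hand for 38 of the 46 members, and none for Mcm4, Ccne2, Gins2, Ccna2, Aurkb, Tpx2, Smc4 and Stmn1. Windows of 250 bases before to 30 after the gene start were searched on both strands. The letters were CCAAT, the CHR letters TTTGAA or TTCGAA, and for E2F TTT, then CC, CG, GC or GG, then CGC. CCAAT was present in 19 of 21 mitotic members (90.5%), 8 of 14 replication members (57.1%) and 36.6% of 27025 promoters of all genes. CHR letters were present in 14 of 21 mitotic members (66.7%), 2 of 14 replication members (14.3%) and 18.6% of all promoters. E2F letters were present in 1 of 21 mitotic members (4.76%, Cdk1), 5 of 14 replication members (35.7%, Mcm3, Mcm5, Mcm6, Mcm7 and Cdc6) and 2.16% of all promoters. Both CCAAT and CHR letters were present in 14 mitotic members and 7.07% of all promoters. A match is a description of the letters and not a site shown to be bound.

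The sequences below run from 150 bases before the start to 30 after it. They are shown for 1 member of most roles, in general the one with the most UMIs and an entry, and for Mcm6, which had the most UMIs among replication members with E2F letters. Capitals mark the letters found, and in Mcm6 a pair of E2F matches overlap. Pcna lies at chr2:132253151-132253330 on the minus strand. Mcm6 lies at chr1:128359676-128359855 on the minus strand. Dut, with no match, lies at chr2:125247365-125247544 on the plus strand. Cks2 lies at chr13:51645082-51645261 on the plus strand, Aurka at chr2:172370541-172370720 on the minus strand and Cenpa at chr5:30666736-30666915 on the plus strand. Prc1 lies at chr7:80294301-80294480 on the plus strand, Ube2c at chr2:164769779-164769958 on the plus strand and Top2a at chr11:99024160-99024339 on the minus strand. The Top2a window held 4 CCAAT boxes and 3 CHR matches, the Mcm6 window 3 E2F matches and the Cks2 window 3 CCAAT boxes.
Pcna: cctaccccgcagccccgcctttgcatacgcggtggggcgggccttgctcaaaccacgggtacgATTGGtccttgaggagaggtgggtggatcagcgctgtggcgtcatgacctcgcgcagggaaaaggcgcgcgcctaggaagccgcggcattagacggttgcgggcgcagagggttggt
Mcm6: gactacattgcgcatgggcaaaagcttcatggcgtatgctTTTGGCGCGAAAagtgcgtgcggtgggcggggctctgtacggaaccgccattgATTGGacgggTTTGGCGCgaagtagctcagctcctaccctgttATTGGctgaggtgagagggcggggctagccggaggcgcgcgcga
Dut: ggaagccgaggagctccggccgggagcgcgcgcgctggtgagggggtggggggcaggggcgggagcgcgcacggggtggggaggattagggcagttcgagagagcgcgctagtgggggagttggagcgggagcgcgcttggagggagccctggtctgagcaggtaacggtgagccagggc
Cks2: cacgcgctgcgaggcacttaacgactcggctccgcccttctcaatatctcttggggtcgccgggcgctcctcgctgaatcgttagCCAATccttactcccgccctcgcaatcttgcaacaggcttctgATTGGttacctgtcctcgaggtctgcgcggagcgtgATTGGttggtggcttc
Aurka: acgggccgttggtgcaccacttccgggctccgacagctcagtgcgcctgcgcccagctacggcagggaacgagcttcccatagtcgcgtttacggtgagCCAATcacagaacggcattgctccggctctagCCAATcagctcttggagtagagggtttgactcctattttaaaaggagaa
Cenpa: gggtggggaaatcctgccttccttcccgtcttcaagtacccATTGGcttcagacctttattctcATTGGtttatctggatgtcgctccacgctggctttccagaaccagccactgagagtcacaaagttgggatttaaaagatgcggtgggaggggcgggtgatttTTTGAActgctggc
Prc1: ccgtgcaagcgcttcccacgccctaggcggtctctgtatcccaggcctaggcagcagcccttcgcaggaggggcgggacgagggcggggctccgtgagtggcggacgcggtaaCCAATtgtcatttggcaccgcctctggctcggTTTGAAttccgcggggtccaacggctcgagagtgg
Ube2c: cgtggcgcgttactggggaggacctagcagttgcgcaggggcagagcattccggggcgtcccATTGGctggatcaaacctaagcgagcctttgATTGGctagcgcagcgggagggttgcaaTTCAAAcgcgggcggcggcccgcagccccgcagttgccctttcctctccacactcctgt
Top2a: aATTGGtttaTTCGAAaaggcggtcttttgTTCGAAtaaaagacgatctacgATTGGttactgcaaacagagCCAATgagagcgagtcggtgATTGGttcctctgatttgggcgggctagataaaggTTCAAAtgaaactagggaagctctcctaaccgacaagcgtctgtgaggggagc

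The matrices held 5176, 4903, 2164 and 5680 labelled cells at days 0, 2, 5 and 7, with 22330278, 57723171, 5986701 and 40427212 UMIs and medians of 3832.5, 9683, 2018 and 5991 UMIs per cell. Any pair of days shared between 9 and 40 barcodes. Several labels went against their markers. Cells labelled B cells at day 2 held 1.83 UMIs per 1000000 UMIs of the label (written cpm) of 5 B cell markers and 45913 cpm of 5 dendritic markers, and those so labelled at day 5 held none and 25227 cpm. At day 2 nearly all of that dendritic sum came from Cd74 (29104 cpm) and H2-Aa (16664 cpm). The other dendritic markers were far below these 2, with Flt3 at 116 cpm, Cd209a at 21.4 cpm and Ccr7 at 7.95 cpm. Flt3 was nevertheless highest in this label among those of day 2, against 81.7 cpm in Macrophages/APCs and 3.53 cpm in the immune label. Cd209a and Ccr7 stood higher in Macrophages/APCs, at 980 and 134 cpm. Cells labelled Macrophages/APCs/T-cells at day 5 held 284 cpm of 6 macrophage markers and 2797 cpm of 5 markers of NK or T cells. Cells labelled Platelets at day 0 held 33.0 cpm of platelet and 4053 cpm of endothelial markers, and those labelled Neural/Glial/Schwann cells 36727 cpm of mature muscle markers. Fibro-adipogenic progenitors (FAPs, the stromal cells of muscle) held more of 5 FAP markers than of any other marker list. Endothelial cells held 5014, 3311, 5563 and 4525 cpm of 5 endothelial markers at days 0, 2, 5 and 7, which at day 0 lay below the 8208 cpm of FAP markers and at day 2 below the 8664 cpm of macrophage markers in them. Muscle stem cells and progenitors (MuSCs) held 948, 1110 and 1024 cpm of 5 MuSC markers at days 2, 5 and 7, below the macrophage markers in them at days 2 and 7 and below the FAP markers (1441 cpm) at day 5. Chodl, 1 of the MuSC markers, had no UMI at day 2.

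Mitotic transcripts spanned a wide range over the 31 label and day sums. The mitotic list stood highest in MuSCs at day 2, at 2841 cpm (2763 to 2922), followed by NK/T cells at day 7, at 2645 cpm (2578 to 2714), and MuSCs at day 7, at 2604 cpm (2544 to 2664). The intervals of NK/T cells and MuSCs at day 7 overlapped. Next came Macrophages/APCs/T-cells at day 5 at 1489 cpm (1403 to 1580), MuSCs at day 5 at 1417 cpm (1218 to 1640), endothelial cells at day 7 at 1256 cpm (1216 to 1297) and the B cell label at day 2 at 1220 cpm (1167 to 1275), where each overlapped its neighbour. All other sums lay at or below 731 cpm, down to 26.9 cpm (13.4 to 48.1) in tenocytes, the cells of tendon, at day 0. The replication list spanned less. It stood at 1954 cpm (1889 to 2021) in MuSCs at day 2 and 1852 cpm (1796 to 1910) in NK/T cells at day 7, and no label with over 100 cells lay below the 159 cpm of activated FAPs at day 7.

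**Figure D1:**
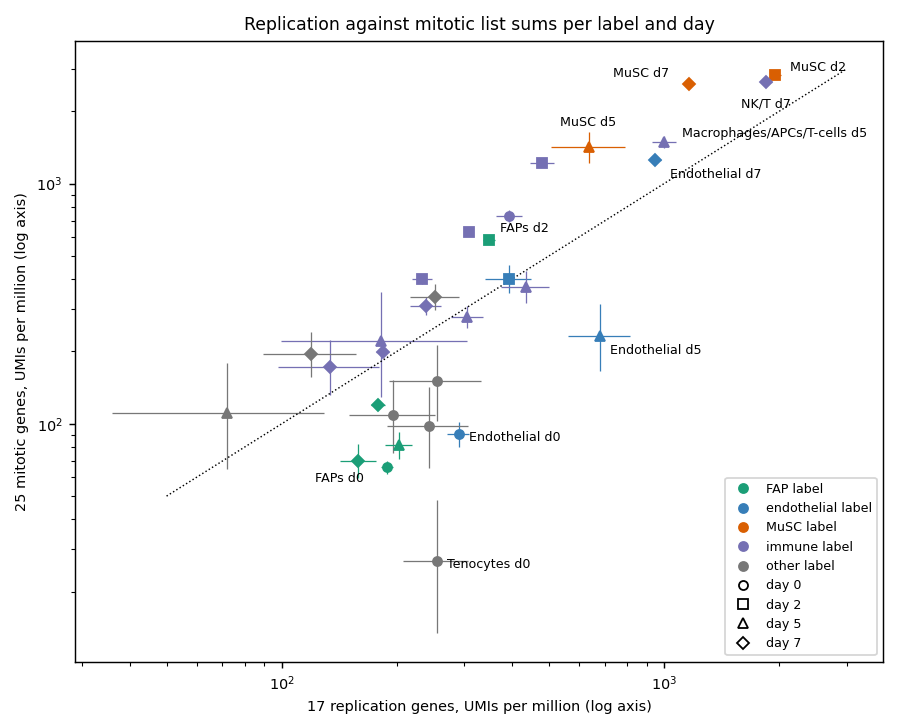
Summed level in cpm of the 17 replication genes (x axis, log scale) against the 25 mitotic genes (y axis, log scale), 1 point per label and day, with 95% Poisson intervals as bars and equal values on the dotted line. MuSCs at days 2, 5 and 7 lie above the line, at 1.45, 2.22 and 2.25 mitotic UMIs per replication UMI, and FAPs and endothelial cells at day 0 lie below it, at 0.35 and 0.31.

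For single members, the highest of the 31 levels fell in MuSCs for 19 of the 25 mitotic genes, 14 of them at day 2, and in NK/T cells at day 7 for the other 6. Among the 17 replication genes it fell in NK/T cells at day 7 for 10 and in MuSCs at day 2 for 5 (Ccne1, Ccne2, Gins2, Rrm1 and Rrm2). Tk1 stood highest in MuSCs at day 7 and Pcna in Macrophages/APCs/T-cells at day 5. For most members the interval of the highest level overlapped that of the second. It did not for Ccna2, Ccne1, Cdc20, Cenpa, Cks1b, Mcm6, Rrm2, H2afz and Hmgb2. Rrm2, the regulated subunit of ribonucleotide reductase, reached 329 cpm in MuSCs at day 2 and 160 cpm in NK/T cells at day 7. Mcm6 reached 129 cpm in NK/T cells at day 7 and 76.7 cpm in Macrophages/APCs/T-cells at day 5.

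**Figure D2:**
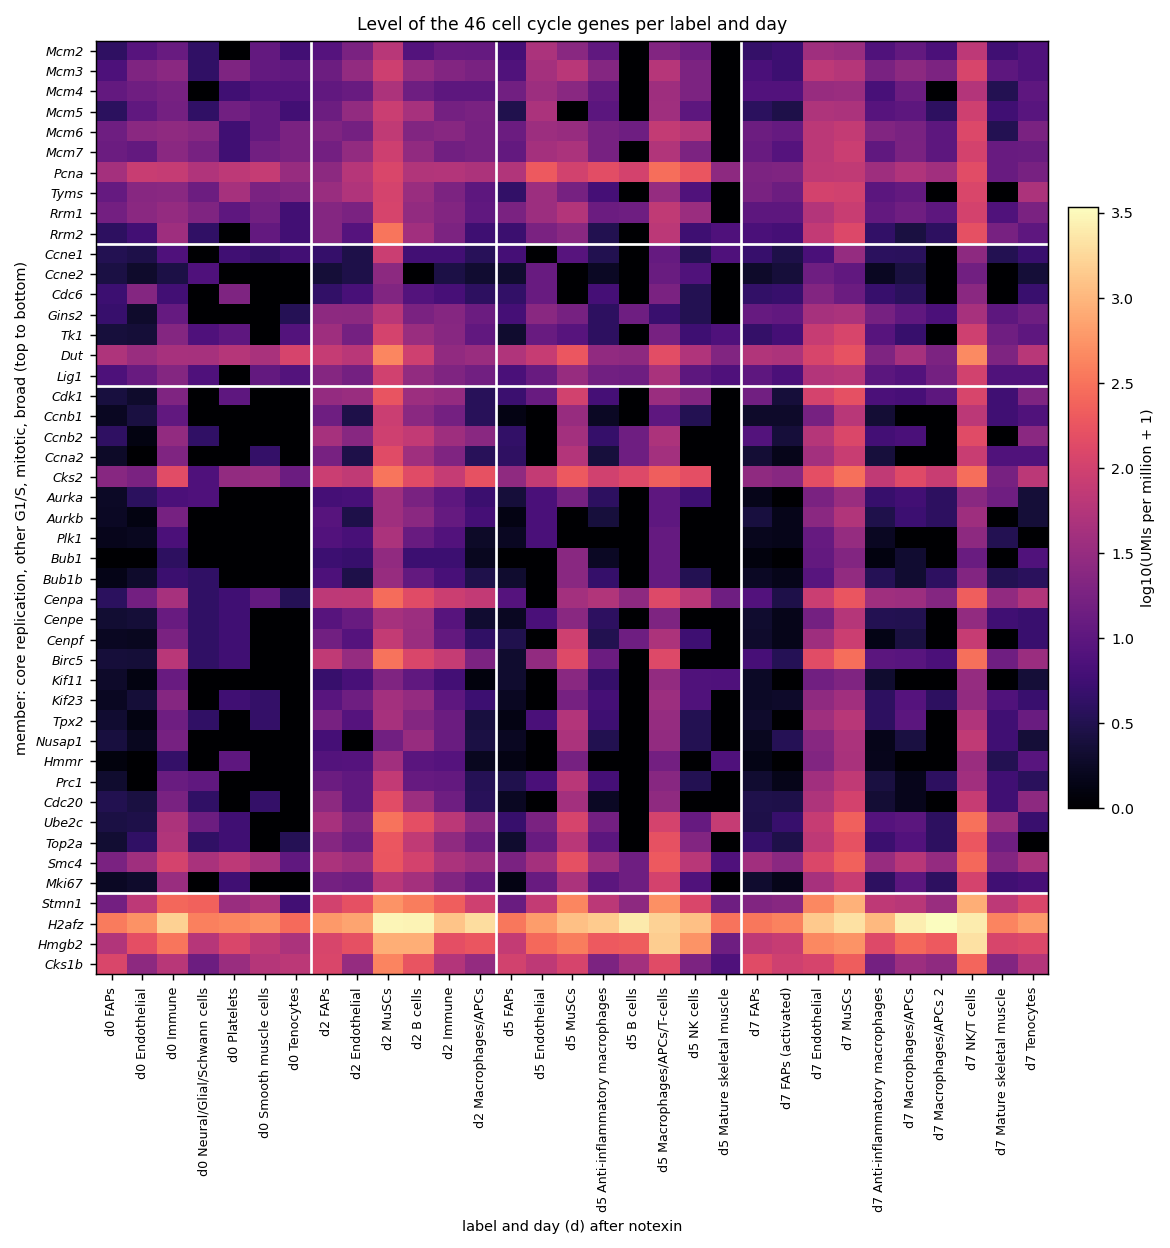
Level of each of the 46 members (rows, grouped by role) in each label and day (columns), as log10 of cpm plus 1, brighter for higher levels. MuSCs at days 2 and 7 and NK/T cells at day 7 are bright across the mitotic and replication rows, and H2afz is high in nearly every column.

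To count cells rather than transcripts, each cell was thinned at random to 1000 UMIs, and a cell was counted as mitotic where at least 2 of the 25 mitotic genes had a UMI. In MuSCs the share was 63.8% (50.1 to 76.0), or 37 of 58 cells, at day 2. It was 12.5% (4.19 to 26.8), or 5 of 40 cells, on day 5 and 27.0% (22.7 to 31.7), or 107 of 396 cells, on day 7. Endothelial shares were 0.28% (interval 0.06 to 0.80) before injury, 5.17% (interval 1.08 to 14.4) on day 2, 2.00% (interval 0.24 to 7.04) on day 5 and 13.5% (interval 10.6 to 16.7), or 70 of 520 cells, on day 7. Uninjured FAPs had a share of 0.20% (0.08 to 0.41), FAPs of day 2 had 8.40% (6.40 to 10.8), and FAPs of day 5 had 0.24% (0.03 to 0.87). At day 7 it was 0.52% (0.22 to 1.02) in cells labelled FAPs, and 0 of 352 activated FAPs were counted, which allows a share of up to 0.85%. MuSCs thus had the highest share at day 2, FAPs were counted above 1% at day 2 alone, and endothelial cells had their highest share at day 7.

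Among immune labels the share was 28.6% (24.1 to 33.4) in NK/T cells at day 7, 19.5% (13.8 to 26.3) in the B cell label at day 2 and 16.9% (13.4 to 20.9) in Macrophages/APCs/T-cells at day 5. It was 8.05% (7.15 to 9.01) in the immune label at day 2, against 7.41% (4.70 to 11.0) at day 0. These near-equal shares cover unlike cells. Among the cells of this label with under 1% of UMIs from macrophage markers, the share was 41.7% of 163 cells at day 2. At day 0 it was 9.62% of 156 such cells. Anti-inflammatory macrophages gave 6 of 431 cells (1.39%) on day 5 and 32 of 1960 cells (1.63%) on day 7, although they were the most numerous immune label of both days. Tenocytes stood at 5.68% (1.87 to 12.8, 5 of 88) at day 7, against 0 of 70 cells at day 0, which allows up to 4.29%. Mature muscle, which is out of the cycle, gave 0 of 62 cells at day 5 (up to 4.84%) and 1 of 56 cells at day 7 (1.79%, 0.05 to 9.55), at median depths of 1608 and 5728 UMIs before thinning. Shares below the upper bound of 9.55% at day 7 or the limit of 4.84% at day 5 do not stand clear of this level. These bounds differ in kind, and the exact interval for 0 of 62 cells at day 5 reaches 5.78%. MuSCs at day 5 (12.5%) lie above it, but their interval starts at 4.19% and reaches below it. The day 7 bound rests on 1 counted cell, and 1 mature muscle cell held 58 of the 85 mitotic UMIs of that label. There was no mature muscle label at days 0 and 2, so shares of those days have no such level to be read against.

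The threshold and the depth set the size of these shares. Of the 520 endothelial cells at day 7, 52 had exactly 1 mitotic gene with a UMI, 17 had 2, 7 had 3 and 46 had 4 or more. Of the 667 FAPs at day 2, 88 had 1, 24 had 2, 13 had 3 and 19 had 4 or more. Without thinning the shares were 98.3% in MuSCs at day 2, 48.5% in MuSCs at day 7, 53.4% in NK/T cells at day 7, 28.5% in endothelial cells at day 7 and 47.5% in FAPs at day 2, and 12.5% in mature muscle at day 7. Median depth before thinning was 2524.5 UMIs in MuSCs at day 5, against 34387 at day 2, 12321 in FAPs at day 2, against 4452 at day 0, and 4281 in endothelial cells at day 7, against 2203 at day 0. At day 7, mitotic MuSCs had a median of 8044 UMIs against 5510 in the others, and mitotic NK/T cells 6566 against 3458.5. Mitotic FAPs at day 2 had 12252.5 against 12321.

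**Figure D3:**
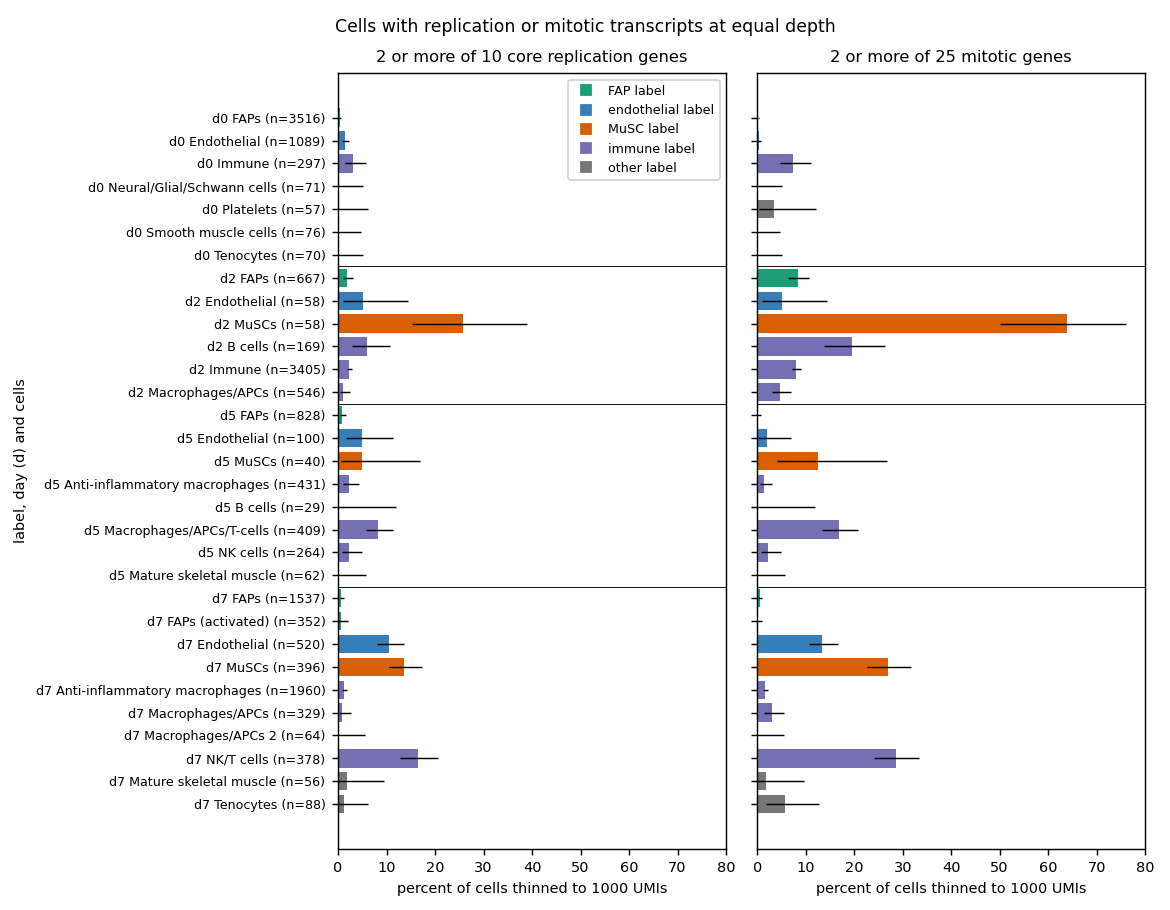
Percent of cells, each thinned to 1000 UMIs, with UMIs of at least 2 of 10 core replication genes (left) and of at least 2 of 25 mitotic genes (right), for each label and day, with 95% Clopper-Pearson intervals. MuSCs at day 2 reach 63.8% on the right and 25.9% on the left, and FAPs stand above 1% at day 2 alone.

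The same count was made over the 10 core replication genes. MuSCs had 25.9% (15.3 to 39.0) on day 2, 5.00% (0.61 to 16.9) on day 5 and 13.6% (10.4 to 17.4) on day 7. It was 16.4% (12.8 to 20.5) in NK/T cells at day 7, 10.6% (8.07 to 13.5) in endothelial cells at day 7 and 8.31% (5.83 to 11.4) in Macrophages/APCs/T-cells at day 5. Uninjured FAPs had 0.37% (0.20 to 0.63), FAPs of day 2 had 1.80% (0.93 to 3.12) and FAPs of day 5 had 0.85% (0.34 to 1.73). Uninjured endothelial cells had 1.38% (0.77 to 2.26). Fewer genes entered this count, so the 2 shares of a label cannot be read against each other. Mature muscle gave 0 of 62 cells at day 5 and 1 of 56 at day 7.

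Split by phase, 46.6% of MuSCs at day 2 had mitotic genes alone, 17.2% both lists and 8.62% core replication genes alone. In MuSCs at day 7 these were 19.4%, 7.58% and 6.06%, and in NK/T cells at day 7 they were 17.7%, 10.8% and 5.56%. In endothelial cells at day 7 they were 8.08%, 5.38% and 5.19%. FAPs at day 2 had 7.50% with mitotic genes alone, 0.90% with both and 0.90% with core replication genes alone. With 25 mitotic and 10 core genes to draw on, the sizes of these classes cannot be ranked against each other within a label.

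**Figure D4:**
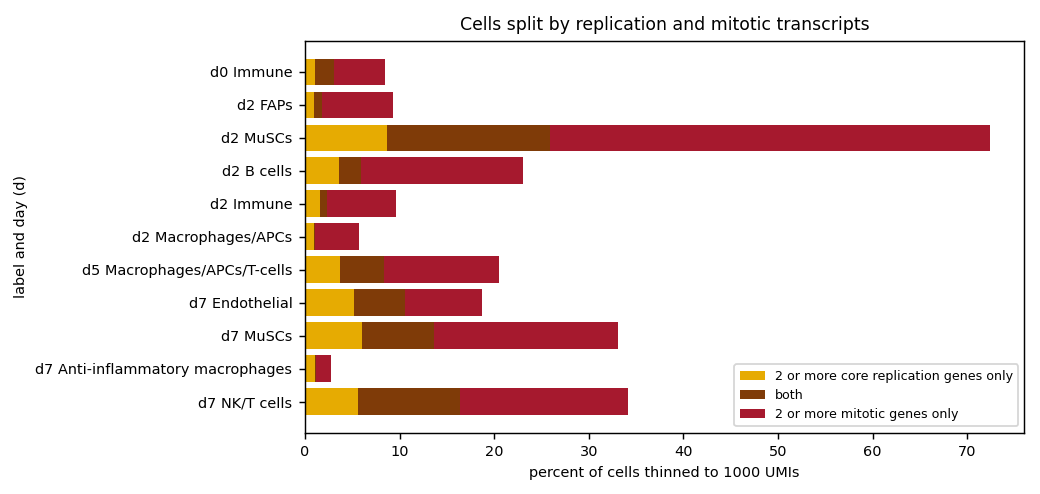
Percent of cells, thinned to 1000 UMIs, with UMIs of at least 2 core replication genes alone, of both lists, or of at least 2 mitotic genes alone, for the labels and days with at least 20 cells in the 3 classes together. MuSCs at day 2 show 8.62%, 17.2% and 46.6%, and FAPs at day 2 show 0.90%, 0.90% and 7.50%.

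In the comparisons between days, a member was called where its level differed at least 2-fold and it had at least 20 UMIs over both days. Comparisons of 1 class share their day 0 or day 2 cells. FAPs at day 2 had 584 cpm of the mitotic list, against 65.9 cpm at day 0, a ratio of 8.86 (8.29 to 9.46). All 25 mitotic members were called higher and 0 lower, where 10.9% of 12995 genes were called higher and 14.1% lower. The median log2 ratio was 3.88, against -0.17 over all genes, with Bub1, which had no UMI at day 0, at its lower bound. Of the 25, 16 would have reached 20 UMIs at the day 0 level, and all 16 were called higher. With cells thinned to 1000 UMIs, which leaves fewer members with 20 UMIs, 7 were called higher, and the share over all genes was not recalculated. The replication list stood at 348 cpm at day 2, against 189 cpm at day 0, a ratio of 1.84 (1.75 to 1.94), with 7 of 17 members called higher, 0 lower and a median of 0.71. The mitotic list thus stood higher by a larger factor than the replication list.

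Among FAP mitotic genes at day 2, Birc5, which encodes survivin of the chromosomal passenger complex, had 71.1 cpm (655 UMIs), against 1.41 cpm (23 UMIs) at day 0, a log2 ratio of 5.66 (5.06 to 6.33). Its level was 1.03 cpm at day 5 and 4.92 cpm at day 7. Cenpe, a kinesin of the kinetochore, had the smallest ratio of the centromere genes, 6.63-fold. Mki67, the proliferation marker of the chromosome surface, had 15.0 cpm at day 2, against 0.73 cpm at day 0, and Smc4, a condensin subunit, 46.6 cpm against 17.3 cpm. Ube2c, the ubiquitin enzyme of mitotic exit, had 44.0 cpm, against 1.71 cpm, and Cdc20, an activator of the same complex, stood 11.9-fold higher. Cyclin B1 (Ccnb1) stood 19.4-fold higher, and Cks2, a small partner of Cdk1, 3.79-fold higher at 85.4 cpm against 22.5 cpm. Cks2 led the list in FAPs, with 14.6% of its UMIs at day 2, against 34.2% at day 0. At day 0 Cks2 and Smc4 both stood above the broad gene Stmn1 (14.4 cpm), so the day 0 sum leans on these members. Bub1, a checkpoint kinase, had 39 UMIs at day 2 and none at day 0, at least 23.1-fold higher, and Aurka, the Aurora kinase of the spindle poles, stood 6.69-fold higher. Of the spindle genes, Hmmr stood 29.3-fold higher (66 UMIs against 4) and Nusap1 3.28-fold higher.

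Among FAP replication genes at day 2, Tk1, thymidine kinase, had the largest ratio, at 36.1 cpm, against 1.47 cpm at day 0, a log2 ratio of 4.62 (4.02 to 5.28). Rrm2 had 21.3 cpm, against 2.94 cpm, 7.25-fold higher, and then 4.11 cpm at day 5 and 5.68 cpm at day 7. Pcna, the sliding clamp, went the other way, at 25.4 cpm against 41.4 cpm, a ratio of 0.613, and was not called. Dut had 77.8 cpm at day 2, against 50.6 cpm at day 0. Ccne2 had 12 UMIs against 28. Of the broad genes, Stmn1, which binds tubulin, stood 7.01-fold higher, and Cks1b had 120 cpm against 117 cpm. Among 25 other replication genes, 11 were called higher and 0 lower, and among 33 measured other mitosis genes 28 were called higher and 2 lower (Pttg1 and Lbr). Of these 33, however, 16 would have reached 20 UMIs at the day 0 level, 11 of them called higher, and the others passed through day 2 alone. Of the 25 other replication genes 23 would have, 9 of them called higher. The sum of the other mitosis genes had a ratio of 1.34 (1.29 to 1.40), against 8.86 for the mitotic list. Macrophage markers stood at 2259 cpm in these FAPs, against 47.0 cpm at day 0. Without cells that held at least 1% of such UMIs the share of mitotic FAPs was 8.60%.

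At days 5 and 7 FAPs stood closer to day 0 than at day 2. At day 5 the mitotic list had 81.3 cpm, against 65.9 cpm at day 0, a ratio of 1.23 (1.07 to 1.42). Of 13 measured members 4 were called higher and 2 lower (of the 12 that would have passed at the day 0 level, 3 were called higher), where 10.2% of all genes were called higher and 10.3% lower. The other 12 were not measured, namely Ccnb1, Aurka, Aurkb, Plk1, Bub1, Bub1b, Cenpf, Kif11, Kif23, Tpx2, Hmmr and Mki67. Of the replication list there were 203 cpm, against 189 cpm, with 1 of 17 called higher (Ccne1) and 1 lower (Tyms, 3.43 cpm against 10.6 cpm). Of the other replication genes 1 of 23 was called higher and 4 lower, and of the other mitosis genes 0 of 14 higher and 1 lower. The sum of the other mitosis genes stood lower than at day 0, at a ratio of 0.80 (0.74 to 0.86). At day 7, over both FAP labels, the mitotic list had 113 cpm, against 65.9 cpm, a ratio of 1.71 (1.58 to 1.85), with 6 of 20 measured members called higher and 0 lower, where 9.99% of all genes were called higher and 10.6% lower. Aurka, Plk1, Bub1, Bub1b and Hmmr were not measured.

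Cdk1 had the largest ratio in day 7 FAPs, at 12.4 cpm (179 UMIs), against 1.59 cpm (26 UMIs) at day 0, 7.80-fold higher. Its UMIs lay in 151 of 1889 cells at day 7, with at most 5 in a cell, whereas at day 0 they lay in 7 cells, of which 1 held 46.2%. Cells labelled FAPs had 14.3 cpm of Cdk1 and activated FAPs 1.42 cpm. Among its partners, cyclin B2 (Ccnb2) had 6.45 cpm, against 3.06 cpm, and Cks2 26.1 cpm, against 22.5 cpm. Birc5 stood 3.50-fold higher and Top2a, the topoisomerase that untangles chromosomes, 2.98-fold higher. The replication list had 175 cpm, against 189 cpm, a ratio of 0.93 (0.88 to 0.98), with 2 of 17 called higher and 1 lower, and the direction turned with the authors' normalized values. Gins2 stood 2.89-fold higher, and Pcna had 18.2 cpm against 41.4 cpm, a ratio of 0.438. Of the other replication genes 3 of 24 were called higher and 0 lower, and of the other mitosis genes 4 of 20 higher and 2 lower. Of those 20, 18 would have passed at the day 0 level, 2 of them called higher. The sum of the other mitosis genes had a ratio of 0.88 (0.84 to 0.91), against 1.71 for the mitotic list. The direction in FAPs at day 7 thus depended on which mitosis genes were summed.

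Endothelial cells differed most at day 7. The mitotic list had 1256 cpm, against 90.6 cpm at day 0, a ratio of 13.9 (12.3 to 15.7). All 25 mitotic members were called higher, where 7.08% of 10721 genes were called higher and 10% lower. The median log2 ratio was 4.97, against -0.11 over all genes, with 4 members that had no UMI at day 0 at their lower bounds. Of the 25, 3 would have reached 20 UMIs at the day 0 level, so the other 22 passed through day 7 alone and had to differ. The sum of the replication list was 948 cpm, against 290 cpm, a ratio of 3.27 (3.03 to 3.53), with 15 of 17 members called higher and 0 lower. Of these, 13 would have passed at the day 0 level, 11 of them called higher. Among the other replication genes 20 of 25 were called higher and among the other mitosis genes 24 of 29, with 0 lower in both. At the day 0 level 16 of the other replication genes would have passed, 11 of them called higher, and 10 of the other mitosis genes, 5 of them called higher. The rest passed through day 7 alone and had to differ. The sum of the other mitosis genes had a ratio of 1.76 (1.67 to 1.86). The 52 cells with the most mitotic UMIs held 81.1% of them. With cells thinned to 1000 UMIs, which leaves fewer members with 20 UMIs, 10 mitotic members were called higher, and the share over all genes was not recalculated.

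By role in day 7 endothelial cells, Rrm2 had 73.3 cpm, against 4.83 cpm at day 0, 15.2-fold higher, and Tk1 had 80.1 cpm against 1.29 cpm. Pcna had 67.8 cpm, against 82.5 cpm, and Cdc6 20.4 cpm, against 21.3 cpm. These were the replication members not called. Dut had 116 cpm, against 32.9 cpm. Cks2 had 155 cpm, against 17.4 cpm, and cyclin B2 (Ccnb2) 56.6 cpm (166 UMIs), against 1 UMI, a log2 ratio of 7.46 (4.96 to 12.8). Birc5 had 142 cpm, against 1.29 cpm, and Cenpa, the centromeric histone, 84.9 cpm, against 14.5 cpm. Aurka stood 5.99-fold higher, and Aurkb had 70 UMIs against 1, a log2 ratio of 6.21 (3.68 to 11.5). Tpx2, a spindle assembly factor, had 110 UMIs, against 1, a log2 ratio of 6.86 (4.35 to 12.2), and Hmmr 59 UMIs, against none, at least 20.8-fold higher. Ube2c stood 42.3-fold and Cdc20 31.3-fold higher. Mki67 had 44.0 cpm, against 0.97 cpm (3 UMIs), a log2 ratio of 5.51 (3.93 to 7.80), and Smc4 124 cpm, against 37.4 cpm. All 4 broad members were called higher, from H2afz, a histone variant, at 2.59-fold to Stmn1 at 6.97-fold.

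Macrophage markers stood at 2750 cpm in endothelial cells at day 7, against 80.2 cpm at day 0, and without cells that held at least 1% of such UMIs the mitotic share was 14.1% of 497 cells.

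Endothelial cells at days 2 and 5 were few, with 58 and 100 cells. At day 2 the mitotic list had 402 cpm, against 90.6 cpm at day 0, a ratio of 4.44 (3.70 to 5.33). However, 1 cell held 103 of its 211 UMIs. Of 5 measured members 4 were called higher and 0 lower, where 6.58% of all genes were called higher and 19.7% lower. These were Cdk1 (17 UMIs against 3, a log2 ratio of 5.07 with an interval of 3.28 to 7.48), Birc5 (16 against 4), Cks2 (37 against 54, 4.05-fold) and Cenpa (36 against 45, 4.73-fold), and Smc4 stood at a ratio of 0.968. At the day 0 level 3 of the 5 would have reached 20 UMIs, 2 of them called higher, while Cdk1 and Birc5 passed through day 2 alone. In the replication list 4 of 12 measured members were called higher and 1 lower (Cdc6), with Mcm5 at 2.96-fold and Mcm6 at 0.631. Of the other replication genes 4 of 15 measured were called higher and 1 lower. At the day 0 level 11 of these would have passed, 1 of them called higher. Of the other mitosis genes 1 of 8 was called higher and 2 lower, and their sum had a ratio of 0.83 (0.73 to 0.93). Macrophage markers stood at 8664 cpm, and their part in the result was not tested. Without cells at 1% of such UMIs or more, 48 cells were left and 2 mitotic members were called higher.

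At day 5 endothelial cells had more of both lists than at day 0, on few UMIs. The replication list had 678 cpm, against 290 cpm at day 0, a ratio of 2.34 (1.91 to 2.84), with 7 of 12 measured members called higher and 0 lower, where 11.4% of all genes were called higher and 15.6% lower. Mcm2 had the largest ratio, 5.99-fold (8 UMIs against 24), and Mcm6 the smallest of the core, 1.44-fold. Pcna had 197 cpm (34 UMIs), against 82.5 cpm, and Dut 81.1 cpm, against 32.9 cpm. Of 3 measured mitotic members 1 was called higher, Cks2 at 4.33-fold. Of the other replication genes 2 of 11 measured were called higher and 1 lower, and of the other mitosis genes 0 of 6 in each direction. The sum of the other mitosis genes had a ratio of 0.83 (0.67 to 1.01). The mitotic list had 232 cpm, against 90.6 cpm, a ratio of 2.56 (1.79 to 3.57), from 40 UMIs, of which 1 cell held 12. Of the 117 replication UMIs 1 cell held 26, and with cells thinned to 1000 UMIs 0 replication members were called higher. Mitotic UMIs per replication UMI numbered 0.31 (0.27 to 0.36) before injury, 1.02 (0.84 to 1.25) in day 2 cells, 0.34 (0.23 to 0.49) in day 5 cells and 1.32 (1.26 to 1.39) in day 7 cells. Median depth at day 5 was 1433 UMIs, the second lowest of all labels.

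**Figure D5:**
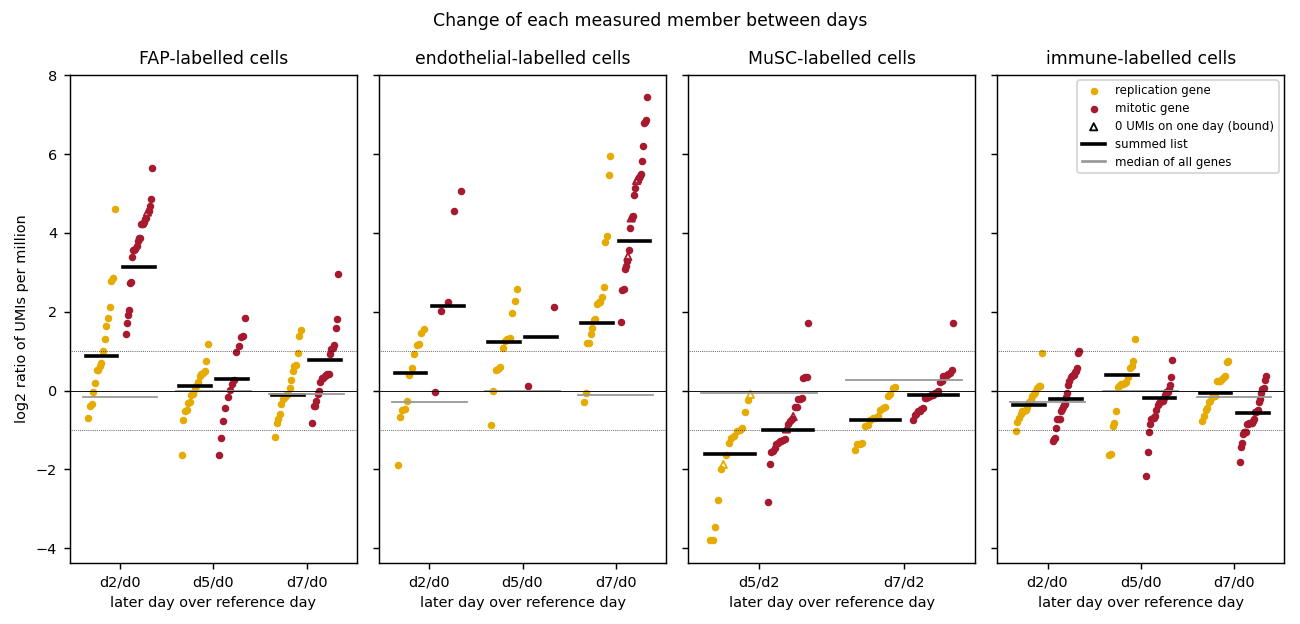
Log2 ratio of each member's level in cpm for FAPs and endothelial cells (days 2, 5 and 7 against day 0), MuSCs (days 5 and 7 against day 2) and immune-labelled cells (days 2, 5 and 7 against day 0), by list, for the members that were measured. Triangles are bounds for members with no UMI on 1 of the days, black bars the summed list and grey bars the median of all genes. All 25 mitotic members lie above 1 in FAPs at day 2 and in endothelial cells at day 7, where Pcna and Cdc6 lie below 0.

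MuSCs had no label at day 0, so days 5 and 7 were set against day 2. At day 5 the 40 cells had 1417 cpm of the mitotic list, against 2841 cpm at day 2, a ratio of 0.50 (0.43 to 0.58). Of 25 members 1 was called higher and 11 lower, where 18.8% of all genes were called higher and 22.4% lower. Replication genes summed to 638 cpm, against 1954 cpm, a ratio of 0.33 (0.26 to 0.41), with 12 of 17 called lower and 0 higher. Rrm2 had 23.6 cpm (3 UMIs), against 329 cpm (574 UMIs), Tk1 had 1 UMI against 190, and Pcna had 102 cpm, against 121 cpm. Cenpa had 39.4 cpm, against 280 cpm. The 1 member called higher was Nusap1, with 6 UMIs at day 5, of which 1 cell held 5. Moreover, 1 cell held 88 of the 180 mitotic UMIs. Ccne2 had no UMI at day 5, against 44 at day 2. Of the other replication genes 13 of 23 were called lower and 0 higher, and of the other mitosis genes 9 of 30 lower and 1 higher.

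At day 7 MuSCs stood near day 2 in the mitotic list and lower in the replication list. The mitotic list had 2604 cpm, against 2841 cpm, a ratio of 0.92 (0.88 to 0.95), with 1 of 25 members called higher and 0 lower, where 25.9% of all genes were called higher and 8.58% lower. The member called higher was Nusap1, which bundles spindle microtubules, at 46.8 cpm (131 UMIs), against 14.3 cpm (25 UMIs), and with each cell weighted equally 0 were called higher. Mitotic ratios otherwise ran from 0.599 (Ccna2, cyclin A2) to 1.43 (Aurkb). The replication list had 1159 cpm, against 1954 cpm, a ratio of 0.59 (0.57 to 0.62), and 4 of 17 members were called lower and 0 higher. These were Rrm2 (128 cpm against 329 cpm), Ccne1 (30.7 cpm against 87.2 cpm), Ccne2 (28 UMIs against 44) and Dut (171 cpm against 434 cpm). Mcm6 had a ratio of 1.07 and Tk1 of 1.05. The median over all genes stood at 0.27 on the log2 scale, so the members stood lower still relative to it. Of the other replication genes 0 of 25 were called higher and 5 lower, and of the other mitosis genes 4 of 34 higher and 1 lower.

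In MuSCs, mitotic UMIs per replication UMI were 1.45 (1.39 to 1.52) in day 2 cells, 2.22 (1.70 to 2.93) in day 5 cells and 2.25 (2.16 to 2.34) in day 7 cells. Birc5 had 319, 134 and 295 cpm on these days, Top2a 187, 63.0 and 164 cpm, Mki67 63.1, 47.2 and 82.5 cpm, and Cdk1 176, 102 and 161 cpm. Of the 25 mitotic members 20 stood lowest at day 5, 3 at day 2 (Cenpf, Nusap1 and Tpx2) and 2 at day 7 (Bub1 and Kif11), on 180 UMIs in all at day 5. The 10% of cells richest in mitotic UMIs held 67.1% of them at day 7, against 23.2% at day 2, when they were spread over most cells, with Birc5 found in 56 of 58. Macrophage markers stood at 1576, 205 and 5204 cpm on these days. Without cells that held at least 1% of such UMIs, the mitotic share at day 7 was 21.6% of 356 cells. This lies below the interval of the share over all 396 cells, 27.0% (22.7 to 31.7). The cells left out thus held a larger share of mitotic cells, and the cause was not tested.

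Immune-labelled cells, whose labels differ from day to day, held mitotic genes before injury. The mitotic list had 626 cpm at day 2, 636 cpm at day 5 and 490 cpm at day 7, against 731 cpm at day 0. At day 2, 0 of 25 members were called higher and 3 lower (Kif11, Kif23 and Smc4), where 7.82% of all genes were called higher and 22.7% lower, and the log2 ratio of the sum was -0.22 but 0.07 with each cell weighted equally. The members called higher then numbered 5, and they numbered 5 with cells thinned to 1000 UMIs, 6 without the top 5% of cells by UMIs and 2 with another size factor. For these and the other alternative counts of this paragraph the share over all genes was not recalculated. Cenpa had 88.4 cpm, against 44.3 cpm, just below 2-fold. The replication list had 307 cpm, against 394 cpm, with 0 of 17 members called higher and 1 lower (Rrm2), and its direction turned with the authors' normalized values. At day 5, 0 of 22 were called higher and 3 lower (Ccnb1, Aurkb and Cdc20), where 13.5% of all genes were called higher and 13.2% lower, and here the log2 ratio was -0.20 but 0.17 with each cell weighted equally, when 4 members were called higher. In the replication list Pcna had 192 cpm, against 77.9 cpm, the 1 of 16 members called higher, while Gins2 and Tk1 were called lower. At day 7, 7 of 25 mitotic members were called lower and 0 higher, where 8.42% of all genes were called higher and 16.2% lower, led by Kif23 with 6.34 cpm, against 22.2 cpm. With each cell weighted equally 2 were called higher. Replication genes together had 380 cpm, against 394 cpm, with 0 of 17 called in each direction. Of the other replication genes 0 of 25, 1 of 20 and 0 of 25 were called higher at days 2, 5 and 7. Called lower were 6, 3 and 4. Of the other mitosis genes 1 of 34, 1 of 21 and 0 of 33 were called higher on these days, and 4, 4 and 13 lower.

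The pooled immune values hide unlike labels at day 7. NK/T cells had 2645 cpm of the mitotic list, anti-inflammatory macrophages 199 cpm (192 to 207) and Macrophages/APCs 310 cpm (285 to 336). Birc5 had 303 cpm in NK/T cells, 8.57 cpm in anti-inflammatory macrophages and 8.10 cpm in Macrophages/APCs, and Cks2 had 291, 70.6 and 137 cpm. Cks2 alone made up 44.3% of the mitotic UMIs of Macrophages/APCs and 35.5% of those of anti-inflammatory macrophages, so that the sum of the list leans on 1 gene there. In NK/T cells Ube2c led with 11.7%. The broad gene Hmgb2, a chromatin protein, had 2128 cpm in NK/T cells, 129 cpm in anti-inflammatory macrophages and 262 cpm in Macrophages/APCs, whereas H2afz had 2551, 1044 and 2618 cpm.

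Ube2c needs care beside muscle fibres. Its gene, at chr2:164769898-164778822 on the plus strand (GENCODE vM21, GRCm38), overlaps Tnnc2, which encodes troponin C of fast fibres, by 1662 bases on the opposite strand, and the strand setting of the counting is not given in the sources used here. In mature muscle at day 5, Ube2c had 12 of the 17 mitotic UMIs, in 10 of 62 cells, beside 37913 cpm of Tnnc2. Without Ube2c the list had 5 UMIs there (32.7 cpm). At day 7 Ube2c had 14 UMIs, beside 35697 cpm of Tnnc2, and 1 cell held 58 of all 85 mitotic UMIs. In FAPs Tnnc2 had 34 UMIs (3.69 cpm) at day 2, the day on which Ube2c stood highest, against 752 UMIs in the larger number of cells at day 0. In all, 10 members overlap a protein-coding gene on the opposite strand and 0 on the same strand. Cks1b and Cks2 are close paralogs, and how shared reads were assigned is not given.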

How the data were processed

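Single cells of mouse tibialis anterior were measured by droplet 3' sequencing, as 5 samples in 4 matrices, since the 2 runs of day 0 share 1. The authors deposited raw UMI counts per gene and barcode, a cell type label per barcode, and normalized values on the natural log scale, which a recalculation from the counts (log of 1 plus 10000 times the UMI share) matched within 6.22e-15. Cell Ranger 2, Seurat 2.3.4 and R 3.6.2 and the build mm10 are named, per the submitters' processing notes. How doublets were treated is not given in the sources used here, and no doublet caller was run. There were 0 other columns of per-sample values.

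UMIs were summed per label and day and divided by the label's total UMIs. A 3' UMI count does not grow with transcript length. Ratios carry exact binomial intervals of the count split, and levels exact Poisson intervals. Members needed 20 UMIs over both days, a count of 0 was replaced by a floor of 3 counts, and a gene with 0 UMIs on a day was never called higher there. For shares, cells were thinned without replacement to 1000 UMIs (seed 1), which left out 1 cell, and given Clopper-Pearson intervals. A share of 0 has a limit of 3 cells of the total. The calculation was tested on simulated data. With 1 matrix per day no test was run.

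The members, lists and alternatives were chosen with earlier results of these data known. The text names, in each role group and comparison, the members of largest and smallest ratio and the member with the most UMIs. Other members named were chosen after their values were seen. Alternatives were another size factor, other UMI minimums, other depths of thinning and another seed, equal weight per cell, cells of the top 5% of UMIs left out, other numbers of genes per cell, the authors' normalized values and, chosen after seeing the data, cells with at least 1% of UMIs from macrophage markers left out. Python 3.11.15, numpy 2.4.6, scipy 1.17.1, pandas 2.3.3 and matplotlib 3.10.9 were used.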

Additional observations from a re-analysis of the deposited data

Results flagged for a closer look

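The classes differed on the same day in the log2 ratios of summed lists against day 0, and these differences between classes were not tested. The mitotic list had ratios of 3.15 in FAPs, 2.15 in endothelial cells and -0.22 in immune-labelled cells at day 2. At day 5 they were 0.30 in FAPs, 1.36 in endothelial cells and -0.20 in immune-labelled cells. At day 7 they were 0.77 in FAPs, 3.79 in endothelial cells and -0.58 in immune-labelled cells. The sum of the other mitosis genes had ratios of 0.42, -0.32 and -0.19 in FAPs at days 2, 5 and 7. In endothelial cells these were -0.28, -0.28 and 0.82. The replication list had ratios of 0.88 in FAPs, 0.44 in endothelial cells and -0.36 in immune-labelled cells at day 2, and of 1.71 in endothelial cells and -0.11 in FAPs at day 7. With other settings the sign turned for the mitotic list in immune-labelled cells at days 2 and 5. It also turned for the replication list in them at day 2 and in FAPs at day 7. Of the 297 immune cells at day 0, 30 held 77.6% of the mitotic UMIs, and 1 endothelial cell at day 2 held 103 of 211.

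Barcodes in the count tables that carry no cell type label also held mitotic transcripts. They had 3866 cpm (3733 to 4002, 21 barcodes) at day 2, 551 cpm (434 to 691, 13 barcodes) at day 5 and 1887 cpm (1643 to 2158, 9 barcodes) at day 7, against 130 cpm (56.3 to 257, 14 barcodes) at day 0. Their median depth was 51552 UMIs at day 2.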

How the results depend on the processing

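No paired analysis was possible because each day is 1 matrix and no result comes from a test, so the number 1 that the days share only names a sample. The cause of the changes below was not tested, except that thinning and higher minimums leave fewer members with enough UMIs. Counts are of members at least 2-fold higher. The number of members measured and the share over all genes were not recalculated under these settings. These counts therefore cannot be set against the shares over all genes given above.

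With cells thinned to 1000 UMIs, the mitotic count was 7 in FAPs at day 2, 0 at day 5 and 2 at day 7, 2 in endothelial cells at day 2 and 10 at day 7, 0 in MuSCs at day 5, and 5 in immune-labelled cells at day 2 and 2 at day 7. The replication count was 2 in FAPs at day 5, 1 and 0 in endothelial cells at days 2 and 5, and 2, 3 and 3 in immune-labelled cells at days 2, 5 and 7. With a minimum of 50 UMIs, the mitotic count was 1 in FAPs at day 5, 2 in endothelial cells at day 2 and 0 in MuSCs at day 5, and the replication count was 1 and 3 in endothelial cells at days 2 and 5. With no minimum, the mitotic count was 19 and 11 in endothelial cells at days 2 and 5, and the replication count 11 in endothelial and 2 in immune-labelled cells at day 5. With each cell weighted equally, the mitotic count was 0 in MuSCs at days 5 and 7 and 5, 4 and 2 in immune-labelled cells at days 2, 5 and 7. The replication count was then 4 in endothelial cells at day 5, and 1 and 2 in immune-labelled cells at days 2 and 7. Without the top 5% of cells by UMIs, the mitotic count was 2 in FAPs at day 5, 2 in endothelial cells at day 2, 0 in MuSCs at days 5 and 7, and 6, 1 and 2 in immune-labelled cells at days 2, 5 and 7. The replication count was then 2 in FAPs and 4 in endothelial cells at day 5, and 1 in immune-labelled cells at day 2. With the median-of-ratios size factor, immune-labelled cells at day 2 had 2 mitotic and 1 replication members higher. Without cells rich in macrophage markers, endothelial cells at day 2 had 2 of each list higher.

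The direction of a list's log2 ratio turned in immune-labelled cells and in FAPs. The mitotic list at day 2 had 0.04 with the size factor, 0.07 with equal weights and 0.15 without the top 5%, and at day 5 it had 0.17 with equal weights and 0.21 without the top 5%. With the authors' normalized values the natural log difference at day 2 was 0.022 for the mitotic and 0.005 for the replication list, and in FAPs at day 7 it was 0.004 for the replication list.

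The mitotic share at 500 UMIs, at 2000 UMIs and without thinning was 5.4%, 11.8% and 47.5% in FAPs at day 2, 34.5%, 82.8% and 98.3% in MuSCs at day 2, 10%, 16.9% and 28.5% in endothelial cells at day 7, 18.9%, 32.1% and 48.5% in MuSCs at day 7, and 16.9%, 35.7% and 53.4% in NK/T cells at day 7. With at least 1 and at least 3 genes per cell it was 21.6% and 4.8% in FAPs at day 2, 84.5% and 39.7% in MuSCs at day 2, 23.5% and 10.2% in endothelial cells at day 7, 42.2% and 18.9% in MuSCs at day 7, and 47.9% and 20.1% in NK/T cells at day 7. It was 21.6% in MuSCs at day 7 without cells rich in macrophage markers, below the reported interval. Of the counts recalculated, 103 stayed within 1.5 times the reported one and 45 did not. Of the list ratios, 56 stayed within the counting interval (for normalized values, kept their sign), 46 moved beyond it and 8 changed direction. Of the shares recalculated, 127 mitotic and 78 core replication shares stayed within the reported interval, and 109 and 77 moved beyond it. In day 7 cells MuSCs stood above NK/T cells at 500 UMIs and below them at 1000.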
